A study of Mus musculus with 6 samples.

Results

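The expression of 9 genes known from pancreatic duct cells and from simple epithelia was measured in sorted islet cells of newborn mice: the keratins Krt7, Krt8, Krt18 and Krt19, the cell surface genes Epcam and Muc1, the transcription factor Sox9, the secreted glycoprotein Spp1 and the chloride channel Cftr. They were chosen by name for their role, and all 9 were found on the array, among 45616 genes and transcripts tested, of which 22916 carry a gene symbol. 11 probes report on these 9 genes, with 2 probes each for Sox9 and Cftr, and the probe with the highest mean intensity stood for each gene. Of the 9 genes, 8 were well above background on all 6 arrays.

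Islets were taken at postnatal day 1 from pups of a cross of Wnt4eGFPCre, an allele that makes a GFP-Cre fusion from Wnt4, with the mTmG reporter, on mice crossed to C57BL/6J. In these mice Cre switches a cell permanently from membrane Tomato to membrane GFP (mGFP), so that mGFP marks cells that have expressed Wnt4 and not only those that express it at that time. FACS separated mGFP+ cells, called Wnt4hi, from mGFP- cells, called Wnt4low. The labels describe Wnt4eGFPCre; mTmG mice for both populations, whereas a caption of the study writes the Wnt4low side as Tg- for Wnt4eGFPCre, so whether all pups carried that allele is not settled here. Each array received RNA of 1 sample, for which the islets of 3 or 4 pups had been combined, with 3 arrays for Wnt4hi (replicates 2, 3 and 4) and 3 for Wnt4low (replicates 1, 3 and 4). The gate selected for mGFP and not for an endocrine marker, so either population can hold any cell type of the dissociated islet. The sex of the pups and whether samples of 1 number came from the same pups are not given in the sources used here.

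Keratins are the intermediate filament proteins of epithelia and assemble as obligate pairs of a type II with a type I chain. KRT8 with KRT18 is the pair of most simple epithelia, islet cells included, whereas KRT7 and KRT19 are prominent in duct epithelium. In the pancreas, SOX9, osteopontin (the product of Spp1), CFTR and MUC1 are used as markers of duct or progenitor cells, and EPCAM is found on the surface of endocrine and duct cells alike. Because the samples are bulk RNA, fewer cells of a type and less RNA per cell cannot be told apart.

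On the arrays, 70.5 to 79.5% of the spots were well above background in Wnt4hi and 73.1 to 76.9% in Wnt4low, and 0 spots were saturated. The islet origin was seen in both populations: the log2 intensity of Ins1 was 16.88 ± 0.099 in Wnt4hi and 16.45 ± 0.34 in Wnt4low (SD, n = 3 each). RNA of endothelial cells differed between the populations, as the 18 endothelial markers had a summed linear intensity of 7607 to 10450 in Wnt4hi and of 48392 to 100766 in Wnt4low. In the normalized table that the authors deposited, the column named for Wnt4hi replicate 2 followed the scanner values of Wnt4hi replicate 3 more closely (r = 0.916 across genes) than those of its own array (r = 0.901). That column also followed Wnt4hi replicate 4 (r = 0.910) and Wnt4low replicate 3 (r = 0.906), an array of the other population, more closely than its own array. These coefficients lie close together, and which array the column holds was not tested. Values without the array of Wnt4hi replicate 2 are given below. The number of arrays limits the precision, since 3 against 3 arrays cannot give a two-sided exact permutation p below 0.1.

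Krt8, Krt18 and Epcam were higher in Wnt4hi cells (2.39-, 2.13- and 2.28-fold) and Spp1 was lower (4.46-fold) at the unadjusted threshold, while Krt7, Krt19, Sox9, Cftr and Muc1 did not pass the threshold. At an unadjusted p under 0.05 in limma, 3 of the 9 genes were higher in Wnt4hi, against 5.02% of all features, and 1 of 9 was lower, against 5.53%. After Benjamini-Hochberg adjustment over all features limma called 0 of the 9 genes in either direction, the lowest adjusted p being 0.155, while 0.0351% of all features were called higher and 0.403% lower. In 3 of the 9 genes every Wnt4hi array lay above every Wnt4low array, which was the case for 9.56% of all features, and in 1 of 9 every Wnt4low array lay above, as for 6.44% of all features. The median log2 difference of the 9 genes was 0.18, compared with 0.072 over all features.

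**Figure D1:**
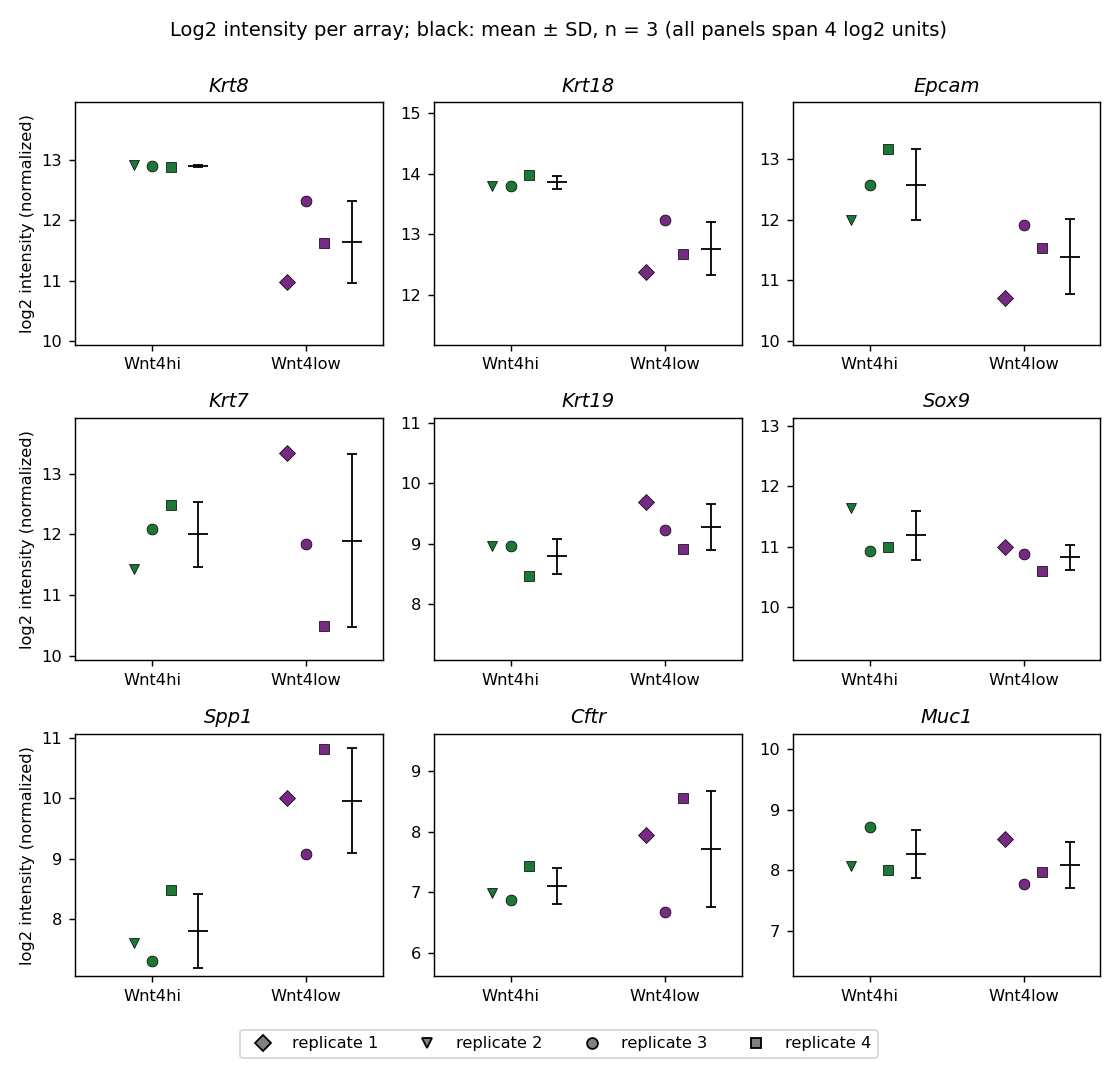
Normalized log2 intensity (y axis) of the 9 genes on each array, with 1 panel per gene, green symbols for Wnt4hi, purple symbols for Wnt4low, and the mean ± SD of 3 arrays in black. Krt8, Krt18 and Epcam have all Wnt4hi arrays above all Wnt4low arrays, Spp1 has the opposite order, and the other 5 genes overlap.

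The type II keratin Krt8, a filament protein of simple epithelia, had log2 intensities of 12.92, 12.89 and 12.87 on Wnt4hi replicates 2, 3 and 4, and of 10.97, 12.32 and 11.62 on Wnt4low replicates 1, 3 and 4. The Wnt4hi arrays lay within 0.043 of each other and above all Wnt4low arrays, whose values spread over 1.35. Krt8 was 2.39-fold higher in Wnt4hi (log2 difference 1.25, SE 0.33, 95% confidence interval 0.44 to 2.07, adjusted p = 0.235 in limma). The gene table also lists a pseudogene of Krt8, and whether the Krt8 probe reads its transcripts was not tested.

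Its type I partner Krt18 was measured at 13.79, 13.79 and 13.98 in Wnt4hi and at 12.37, 13.23 and 12.67 in Wnt4low (replicates in the same order). Again the 3 Wnt4hi arrays were the highest, and Wnt4low replicate 3 came closest to them, as for Krt8. The difference of Krt18 was 2.13-fold (log2 1.09, SE 0.24, 95% confidence interval 0.51 to 1.67, adjusted p = 0.155 in limma), the lowest adjusted p of the 9 genes.

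The balance of both partners was compared through their ratio within each array. The log2 ratio of Krt8 over Krt18 was -0.87, -0.90 and -1.10 in Wnt4hi and -1.40, -0.91 and -1.06 in Wnt4low, where the level of a ratio depends on both probes and only its difference between populations is read. The populations overlapped, with a difference of 0.16 (two-sided exact permutation p = 0.5). Across the 6 arrays Krt8 and Krt18 had a Pearson r of 0.98, and after the mean of each population was taken off r was 0.95. The 6 arrays fall into 2 populations and share their normalization, so these coefficients are descriptive. Krt8 and Krt18 lie next to each other on mouse chromosome 15, with 2 predicted genes, Gm36026 and Gm41404, listed between them.

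Epcam, which encodes an epithelial adhesion molecule, had log2 intensities of 12.00, 12.58 and 13.16 in Wnt4hi and of 10.71, 11.92 and 11.54 in Wnt4low. The populations did not overlap, but the lowest Wnt4hi array (replicate 2) and the highest Wnt4low array (replicate 3) were only 0.080 apart. Epcam was 2.28-fold higher in Wnt4hi (log2 difference 1.19, SE 0.41, 95% confidence interval 0.19 to 2.19, adjusted p = 0.371 in limma). Its call depended on single arrays: without Wnt4hi replicate 3, Wnt4hi replicate 4, Wnt4low replicate 1 or Wnt4low replicate 4 it no longer passed the unadjusted threshold, with differences of 1.19, 0.90, 0.85 and 1.26, respectively. Epcam followed Krt18 over the 6 arrays with r = 0.92 and Krt8 with r = 0.89.

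Muc1, a membrane mucin of apical epithelial surfaces, did not differ beyond the spread between arrays. Its log2 intensity was 8.08, 8.72 and 8.01 in Wnt4hi and 8.52, 7.78 and 7.98 in Wnt4low. The ranges of both populations lay largely on top of each other, and the difference was 0.18 (SE 0.28, 95% confidence interval -0.50 to 0.85, adjusted p = 0.892 in limma).

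The proximal promoters of the 4 genes past the unadjusted threshold are shown to give the sequence next to these measurements. They are the 250 bases before the annotated start, 5′ to 3′ on the strand of the gene, from RefSeq on GRCm38.p6: chr15:102004343-102004592 on the minus strand for Krt8, and chr15:102027966-102028215, chr17:87635729-87635978 and chr5:104434861-104435110 on the plus strand for Krt18, Epcam and Spp1, the last being 1 of 2 listed starts. Capitals mark CACCTG and CAGGTG, the 2 readings of the E-box bound by repressors of epithelial genes such as SNAI1 and ZEB1.
Krt8: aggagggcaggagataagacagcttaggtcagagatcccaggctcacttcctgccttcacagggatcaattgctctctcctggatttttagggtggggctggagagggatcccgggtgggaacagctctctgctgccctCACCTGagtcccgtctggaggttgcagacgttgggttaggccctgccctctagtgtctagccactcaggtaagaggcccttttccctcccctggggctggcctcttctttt
Krt18: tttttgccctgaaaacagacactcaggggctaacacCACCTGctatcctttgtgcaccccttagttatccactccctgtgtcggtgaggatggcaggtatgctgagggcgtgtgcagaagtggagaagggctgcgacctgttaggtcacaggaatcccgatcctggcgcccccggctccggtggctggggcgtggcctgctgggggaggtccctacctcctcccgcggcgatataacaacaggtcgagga
Epcam: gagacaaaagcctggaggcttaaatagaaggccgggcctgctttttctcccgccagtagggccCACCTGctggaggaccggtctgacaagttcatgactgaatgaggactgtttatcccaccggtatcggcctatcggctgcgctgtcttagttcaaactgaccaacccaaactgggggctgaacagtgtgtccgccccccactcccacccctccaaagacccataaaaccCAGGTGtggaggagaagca
Spp1: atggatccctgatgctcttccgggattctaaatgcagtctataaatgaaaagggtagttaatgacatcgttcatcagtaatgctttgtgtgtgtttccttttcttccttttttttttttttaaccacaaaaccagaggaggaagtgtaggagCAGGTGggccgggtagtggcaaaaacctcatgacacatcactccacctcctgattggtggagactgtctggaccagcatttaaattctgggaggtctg
Epcam holds 2 such matches and Krt8, Krt18 and Spp1 hold 1 each, whereas the other listed start of Spp1 holds none. Of the 8 promoters listed for 7 of the 9 genes, 6 hold a match, compared with 17.2% of 32851 promoters of the same length. GGGCGG or its complement CCGCCC was found upstream of Cftr, Epcam, Krt7 and Muc1 and in 32.7% of all promoters, and TGANTCA, the AP-1 motif, in 0 of the 8 promoters and in 6.75% of all. The motifs as written cover both strands, and a match is a description of the letters and not of a bound site.

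Spp1, which encodes the secreted phosphoprotein osteopontin, showed the greatest difference of the 9 genes. Its log2 intensity was 7.61, 7.31 and 8.49 in Wnt4hi and 10.00, 9.07 and 10.81 in Wnt4low. All Wnt4low arrays were above all Wnt4hi arrays, with a gap of 0.58 between Wnt4hi replicate 4 and Wnt4low replicate 3. Spp1 was 4.46-fold lower in Wnt4hi (log2 difference -2.16, SE 0.51, 95% confidence interval -3.39 to -0.92, adjusted p = 0.184 in limma). Its Wnt4hi signal was low, at median intensities of 154, 171 and 261 over local backgrounds of 30, 35 and 30, though well above background on all 3 arrays. The size of the difference depends on the processing, being -2.36 with a normexp offset of 16 and -2.52 with the scaled processed signal. Spp1 is also made by macrophages and mesenchymal cells, and the summed intensity of both marker lists was lower in Wnt4hi as well. That of 15 leukocyte and macrophage markers was 68968 to 80017 in Wnt4hi and 81427 to 107926 in Wnt4low. That of 16 mesenchymal markers was 50849 to 98620 and 119545 to 160280. In Wnt4hi the mesenchymal sum was highest on replicate 2 and Spp1 on replicate 4. In Wnt4low both were highest on replicate 4, but the mesenchymal sum was lowest on replicate 1 and Spp1 on replicate 3. The endothelial sum given above was lower in Wnt4hi too. Of the 15 leukocyte and macrophage markers 8 were lower at unadjusted p and 0 higher, and of the 16 mesenchymal markers 8 were lower and 0 higher. Over all features 5.53% were lower and 5.02% higher. Most of the leukocyte and macrophage sum came from the probe of the integrin Itgam, which had a difference of -0.09. Without it, a sum chosen after seeing the data, the markers added up to 12441 to 16814 in Wnt4hi and 22631 to 28981 in Wnt4low. The macrophage receptor Csf1r had a difference of 0.07 and Tyrobp, an adaptor of myeloid receptors, of -1.67. The 9 Schwann and neural crest markers, whose sum was 5396 to 7520 in Wnt4hi and 8390 to 16106 in Wnt4low, had 3 lower and 0 higher, and of 5 erythroid markers 2 were lower and 0 higher. The part of these cells in the Spp1 value was not tested.

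Cftr, the chloride channel of the duct cell surface, was near the detection limit. On its brighter probe the log2 intensity was 6.99, 6.87 and 7.43 in Wnt4hi and 7.94, 6.67 and 8.55 in Wnt4low, and it was well above background on 0 of 3 Wnt4hi arrays and on 2 of 3 Wnt4low arrays. Wnt4low replicates 1 and 4 were higher than all Wnt4hi arrays and Wnt4low replicate 3 was the lowest of all 6. With each Wnt4hi array at no less than the lowest signal well above background, the mean of Wnt4hi was 1.31-fold lower than that of Wnt4low (log2 0.39). This is no lower bound, because the Wnt4low arrays were taken as measured though only 2 of 3 were well above background. It is also less than the spread between the Wnt4low arrays (SD 0.96 on the log2 scale). The fit did not pass the threshold (adjusted p = 0.754 in limma), and it passed the unadjusted threshold without Wnt4low replicate 3 (adjusted p = 0.236) but not without Wnt4low replicate 4 (adjusted p = 0.958). On its other probe, 0 of the 6 arrays were well above background.

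Krt7, a type II keratin of duct epithelium, varied more between arrays of 1 population than between populations. Its log2 intensity was 11.43, 12.09 and 12.49 in Wnt4hi and 13.35, 11.85 and 10.49 in Wnt4low. The Wnt4low arrays thus gave both the highest and the lowest value, a range of 2.86 compared with 1.07 in Wnt4hi. The difference was 0.10 (SE 0.72, 95% confidence interval -1.65 to 1.85, adjusted p = 0.979 in limma), an interval that leaves room for a change in either direction as large as those of Krt8 or Krt18. It moved in either direction with the setting, being -0.14 without Wnt4hi replicate 4, -0.60 without Wnt4low replicate 4, 0.83 without Wnt4low replicate 1 and 1.12 with a fixed replicate block, and passed the threshold in none of these.

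Krt19, a type I keratin and a common marker of duct cells, was measured at 8.96, 8.96 and 8.47 in Wnt4hi and at 9.69, 9.23 and 8.92 in Wnt4low. Its values pointed the other way from those of Krt8 and Krt18, and the populations overlapped slightly, at Wnt4low replicate 4. The difference was -0.48 (SE 0.25, 95% confidence interval -1.09 to 0.13, adjusted p = 0.601 in limma). It was -0.66 without Wnt4low replicate 4, past the unadjusted threshold (adjusted p = 0.518), and shrank to -0.28 without Wnt4low replicate 1 and to -0.32 without Wnt4hi replicate 4. The log2 ratio of Krt18 over Krt19, both type I chains, was 4.83, 4.83 and 5.51 in Wnt4hi and 2.69, 4.00 and 3.75 in Wnt4low. All Wnt4hi arrays were above all Wnt4low arrays in this ratio, with a difference of 1.58 and the smallest two-sided exact permutation p that the design allows, 0.1 (0.3 after Benjamini-Hochberg adjustment over the 3 ratios computed). Krt18 alone already separated the populations and Krt19 pointed the other way, so the ratio adds no evidence to that of the 2 genes. The third ratio, Krt7 over Krt19, overlapped (difference 0.59, exact permutation p = 0.5).

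**Figure D2:**
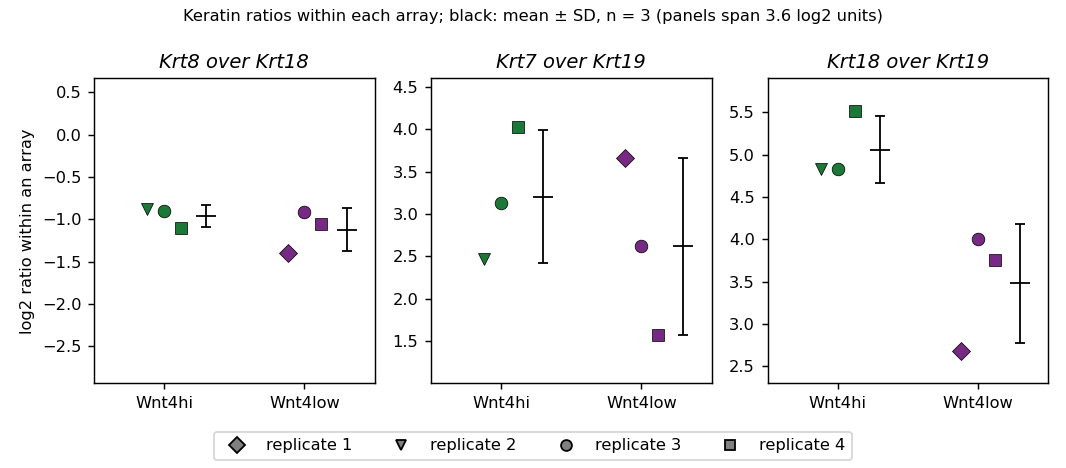
Log2 ratio of 2 keratins within each array (y axis) in Wnt4hi (green) and Wnt4low (purple), with mean ± SD of 3 arrays in black. Krt8 over Krt18 and Krt7 over Krt19 overlap between populations, while Krt18 over Krt19 runs from 4.83 to 5.51 in Wnt4hi and from 2.69 to 4.00 in Wnt4low.

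Sox9, a transcription factor of pancreatic progenitors that persists in adult ducts, had log2 intensities of 11.65, 10.93 and 10.99 in Wnt4hi and of 10.99, 10.88 and 10.60 in Wnt4low. Wnt4hi replicate 2 stood above the other 5 arrays, which overlapped. In the authors' table the value of that column was 10.20, below Wnt4hi replicate 3 and Wnt4low replicate 1 (both 10.32), and the difference there was 0.14. The difference was 0.36 (SE 0.24, 95% confidence interval -0.21 to 0.94, adjusted p = 0.699 in limma). The other Sox9 probe gave a difference of 0.53 (adjusted p = 0.731), with 9.02, 8.94 and 7.78 in Wnt4hi and 8.52, 7.76 and 7.86 in Wnt4low.

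**Figure D3:**
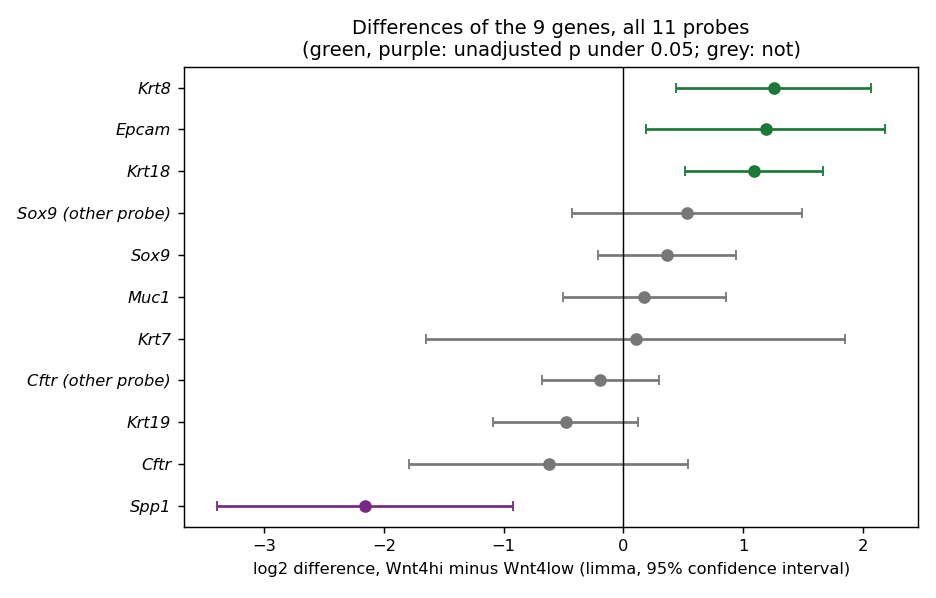
Log2 difference of Wnt4hi minus Wnt4low (x axis) for all 11 probes of the 9 genes, with the 95% confidence interval from limma; green and purple mark an unadjusted p under 0.05 and grey the rest. The intervals of Krt8, Epcam and Krt18 lie above 0 and that of Spp1 below 0, and Krt7 has the broad interval from -1.65 to 1.85. Cftr was not well above background in Wnt4hi, so its fitted points are no measured differences.

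Without the array of Wnt4hi replicate 2, the log2 differences were 1.24 for Krt8, 1.12 for Krt18, 1.48 for Epcam and -2.06 for Spp1, each past the unadjusted threshold (adjusted p = 0.347, 0.235, 0.265 and 0.293 in limma). Those of Krt7 (0.39), Krt19 (-0.56), Sox9 (0.13) and Muc1 (0.27) were not past it, nor was the fit of Cftr. In the authors' table the column of this array was 12.56 for Krt7, 12.76 for Epcam and 8.69 for Spp1. The scanner values used here were 11.43, 12.00 and 7.61. The differences in the authors' table were 0.40, 1.40 and -1.84. Under all alternative settings together, Krt18 and Spp1 passed the unadjusted threshold in 19 of 19, Krt8 in 18 of 18, Epcam in 14 of 19, Krt19 in 3 of 19, Cftr in 1 of 17, and Krt7, Sox9 and Muc1 in 0 of 19.

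**Figure D4:**
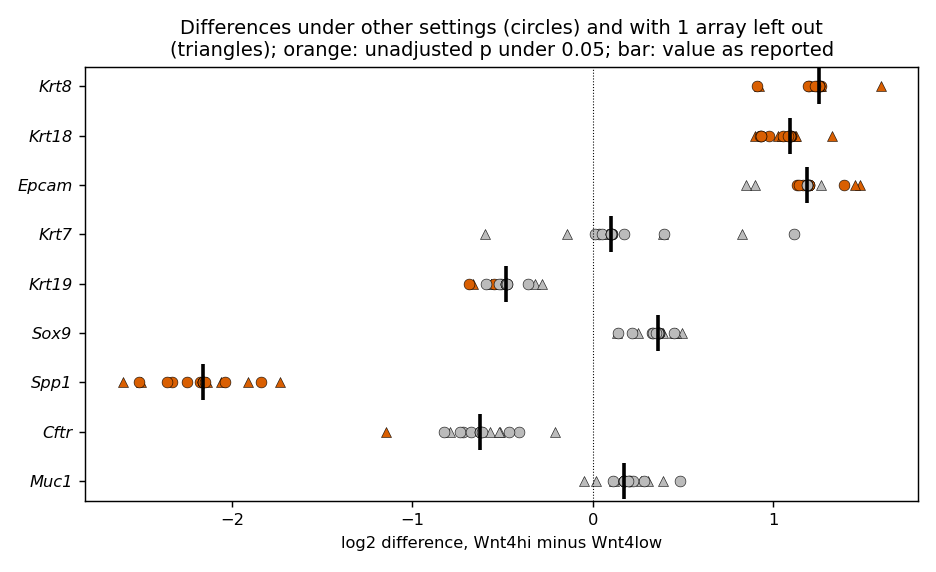
Log2 difference of Wnt4hi minus Wnt4low (x axis) of each gene under other processing settings (circles) and with 1 array left out (triangles), orange where the unadjusted p was under 0.05, with a black bar at the reported value. Krt8 ranges from 0.91 to 1.60, Krt18 from 0.90 to 1.33 and Spp1 from -2.60 to -1.73, while Krt7 crosses 0.

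Further genes of the same roles were set beside the 9, and each count below is to be read against the 5.02% of all features called higher and the 5.53% called lower. Of 20 other keratins of skin, stratified and simple epithelia, limma called 0 at an unadjusted p under 0.05 and 0 after adjustment, and their median log2 difference was 0.00. The most intense of them, Krt222, Krt16 and Krt80 by probe intensity, had differences of -0.17, -0.02 and 0.16. The mean of the Krt222 probe was 15.98 in Wnt4hi and 16.14 in Wnt4low, near that of Ins2 (16.64 and 16.08). Whether it reads Krt222 alone was not tested. Of 13 genes for keratin partners and desmosomes, 5 were higher and 0 lower at unadjusted p, with a median of 0.51. These 5 were the envelope plakins Evpl (1.26) and Ppl (0.55), the desmosomal plaque protein Pkp2 (1.13, adjusted p = 0.0675), the desmosomal cadherin Dsg2 (1.08) and the cytolinker Dst (1.03). They are named after their values were seen, except Dst, which with Pkp4 (0.50) and Plec (-0.40) was among the 3 most intense genes of its list.

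Of 22 genes of the epithelial surface and its junctions, 7 were higher and 1 lower at unadjusted p, with a median of 0.46. The most intense were Lsr (1.19), a tricellular junction protein, and the membrane protease inhibitors Spint1 (2.34) and Spint2 (1.37), all 3 among the 7. The value of Spint1 owes much to Wnt4hi replicate 2, as its log2 intensity was 15.14 there and 12.84 and 12.30 on the other Wnt4hi arrays, against 10.40, 11.72 and 11.14 in Wnt4low. The others, named after their values were seen, were Marveld2 (2.13), Cdh1 (0.97), which encodes E-cadherin, Cldn6 (0.96) and Prss8 (0.45), and the gene lower in Wnt4hi was Tjp1 (-0.88), a junction scaffold that endothelial cells express as well. Of 14 regulators of epithelial identity, 1 was higher and 0 lower, namely the splicing factor Esrp1 (1.17), while Trp63 and Ovol2 had differences of -0.03 and 0.08. The probes of Trp63 and Ovol2 were as bright (means of 15.65 and 15.22 over all arrays), and whether they read these genes alone was not tested either. A count of 1 in 14 is near the share of all features and is no result about the list.

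Of 27 other duct genes, 2 were higher and 6 lower at unadjusted p, with a median of 0.05. Lower in Wnt4hi were the water channel Aqp1 (-3.08), Anxa3 (-2.25), the carbonic anhydrase Car2 (-1.01), the secretin receptor Sctr (-0.92), the Notch target Hes1 (-0.85) and Cd24a (-0.62), and higher were Ambp (1.28) and Tspan8 (1.23). Aqp1, Anxa3 and Car2 were well above background on only 2 of 3 Wnt4hi arrays, and Aqp1 varied widely there (9.64, 6.11 and 8.59), so that the size of its difference is uncertain. Apart from Hes1 and Cd24a, which with Pkd2 (0.08) are the most intense of the list, these were named after their values were seen. No gene of these 5 lists passed the adjusted threshold. Aqp1 and Anxa3 are also expressed by endothelial cells, of whose 18 markers 16 were lower at unadjusted p, 9 of them after adjustment, and 0 higher (median -3.19). With any 1 array left out, 0 to 2 of all features were called lower after adjustment, and 0 with a fixed replicate block. Most of these 9 adjusted calls were thus lost. The part of endothelial cells in these differences was not tested.

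**Figure D5:**
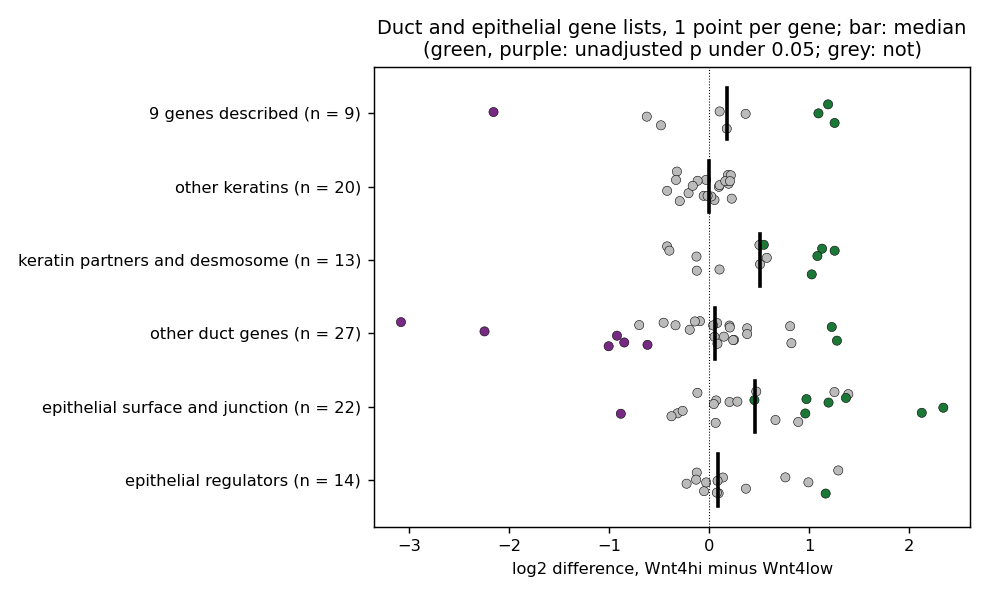
Log2 difference of Wnt4hi minus Wnt4low (x axis) of each gene in the 9 genes described and 5 lists of related genes, with a bar at the median and color where the unadjusted p was under 0.05 (green higher, purple lower in Wnt4hi). The other keratins stay around 0.00, the lists of desmosome and epithelial surface genes have medians of 0.51 and 0.46, and the other duct genes spread from -3.08 to 1.28.

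Beta cell markers moved in the same direction as Krt8, Krt18 and Epcam, and markers of the other endocrine cells moved in both directions. The summed intensity of 16 beta cell markers was 354975 to 363521 in Wnt4hi and 198320 to 312671 in Wnt4low, 11 of the 16 being higher and 0 lower at unadjusted p (median 1.26). Of 11 markers of alpha, delta, PP and epsilon cells, 5 were higher and 2 lower (median 1.41). Of these 11 markers, 1 passed the adjusted threshold, namely Ghrl (2.10, adjusted p = 0.0498 in limma), which encodes ghrelin and was named after its value was seen. With any 1 array left out, or with a fixed replicate block, 0 features were called higher after adjustment, so this call was lost. The lower ones were the delta cell genes Sst (-0.56), which encodes somatostatin, and Hhex (-1.75), named after its value was seen. Of 18 acinar markers, 1 was higher and 2 lower (median -0.80). Their summed intensity was 14104 to 19242 in Wnt4hi, and 14677, 41231 and 33406 on Wnt4low replicates 1, 3 and 4. The most intense, Ctrl, Clps and Ctrb1, had differences of 0.01, -0.95 and -1.47. The acinar lipase Pnlip, named after its value was seen, was well above background on 0 arrays. The part of endocrine and acinar cells in the differences of Krt8, Krt18 and Epcam was not tested.

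The genes most like each of the 8 well measured genes were sought among 16159 genes with a symbol that were well above background on all 6 arrays, by Pearson r over the 6 arrays. Krt8 was most like Enpp2 (r = 0.996), Krt18 most like Entpd3 (r = 0.996) and Epcam most like Sgms2 (r = 0.998). Spp1 was most like Bmpr2 (r = 0.988), Krt19 like Ddit4 (r = 0.983) and Krt7 like Cry1 (r = 0.986). Sox9 was most like Myo6 (r = 0.998) and Muc1 like Zbtb49 (r = 0.991). With 6 points and so many genes searched, high coefficients occur in every case, and they describe these arrays only.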

How the data were processed

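RNA of FACS-sorted islet cells was measured on 1-color Agilent SurePrint G3 Mouse v2 arrays (Cy5), all on 1 slide. The authors deposited spot intensities and local background intensities, not normalized, as Feature Extraction wrote them (version 9.1 in the submitters' processing notes, 12.0.1.1 in the file headers), and their own normalized values on a log2 scale (36693 rows), used here as an alternative. Populations and replicate numbers were taken from the sample labels.

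Values were computed with limma (version 3.58.1, R 4.3.3) after the methods of the study. Median intensities were background-corrected by normexp (offset 50) and normalized by quantiles over 59305 spots that are not controls, outlier and non-uniform spots were left out, and spots of 1 probe were averaged. Of 27845 names of the RefSeq type, 25126 matched RefSeq genes (GRCm38.p6, used for names and neighbours), and 7905 symbols had more than 1 probe. lmFit and eBayes were run with population as the only term over 45616 features, p-values were adjusted by Benjamini-Hochberg over all of them, and an unadjusted threshold of 0.05 was applied beside it. Mean intensity chose the probe that stood for a gene and the genes to name, and linear intensities were summed over marker lists, but intensities of different probes do not compare the levels of their genes. The calculation was tested on simulated data.

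The 9 genes and the lists were chosen with earlier results of these data known. Named beside the 9 genes are up to 3 genes of highest mean intensity per list where the text gives them, and the 1 gene most like each. Alternatives changed the background correction, normalization, filter on dim probes, outlier spots, probe choice, variance model, test, values and replicate block, and left out each array. Intensities carry no counts, so no counting interval is given.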

Additional observations from a re-analysis of the deposited data

How the results depend on the processing

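With 3 arrays per population, the number of arrays and the signal over background (10.8 to 15.6) limit what could be detected, above all for Cftr. Of the 9 genes, 0 passed the adjusted threshold under any of the 19 alternatives, and Krt8, Krt18 and Spp1 kept their direction and passed the unadjusted threshold wherever they were measured; Krt8 was not matched by name in the authors' table, so 2 genes were called higher there. The number of the 9 genes called lower was 2 rather than 1 under cyclic loess and with the authors' table, Krt19 being added (log2 difference -0.55 and -0.68), and 1 to 2 with each array left out. Epcam did not pass under the methods' t-test (difference 1.19), which the study named for other assays and not for its arrays. With each array left out, Krt7 ranged from -0.60 to 0.83 and Muc1 from -0.050 to 0.39; Muc1 changed sign without Wnt4hi replicate 3. Cyclic loess moved the share of all features above 0 from 63.5% to 55.7%.

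Over all features, 16 were called higher and 184 lower after adjustment. These counts were 27 higher with median centring, 77 and 428 with a filter on dim probes (32006 features), 58 and 348 with the authors' table (36689 features), 0 and 0 with the methods' t-test, and 0 higher and 0 to 2 lower with each array left out. The cause was not tested.

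Replicate numbers 3 and 4 occur in both populations. The deviations of same-numbered samples correlated at -0.033 and 0.16, and those of Wnt4hi replicate 2 with Wnt4low replicate 1 at 0.18. Taken from means of 3 arrays, such deviations cannot decide on a pairing. The number of pups combined was the same in both populations, 4 for replicate 3 and 3 for replicate 4. Fitted as a fixed replicate block, the number left 0 features called higher and 0 lower after adjustment, and as a random replicate block 25 were called higher and 227 lower. For the 9 genes either block gave 3 higher and 1 lower at unadjusted p and 0 after adjustment, while the fixed block moved Krt7 from 0.10 to 1.12 and Muc1 from 0.18 to 0.48.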
